A study of Homo sapiens with 14 samples.

Results

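The chaperonin CCT, also called TRiC, is the ATP-driven folding machine of the eukaryotic cytosol. Its stacked rings are each built from 8 related subunits, TCP1, CCT2, CCT3, CCT4, CCT5, CCT6A, CCT7 and CCT8, and enclose newly made proteins while they fold. Actin and tubulin are its best known clients. A cytosine base editor that carries the deaminase APOBEC3A can also deaminate cellular RNA, where a deaminated C is read as U, most often at a C that follows a U (UpC). The RNA of the 8 subunit genes was examined here for such changes.

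All called sites on the strand of the 8 genes, as annotated in GENCODE release 29 (GRCh38), were collected from every library. The genes were chosen by their membership of the complex at a time when the C-to-U level in CCT5 in hA3A-BE3 cells was already known, so the C-to-U calls and levels are given as a description, without a test against other groups. The collection held 20 sites and 39 calls, out of 22358 sites and 46372 calls in the whole series. Of the 20 sites 5 were C-to-U, 12 A-to-I (adenosine read as inosine, seen as G), 2 T-to-A and 1 G-to-A. TCP1, CCT2, CCT4, CCT5, CCT6A and CCT8 had at least 1 called site, and CCT3 and CCT7 had none in the lists analysed. The translated reference transcripts of the 8 genes shared 25.4% (CCT6A and CCT8) to 39.0% (CCT4 and CCT5) of aligned residues, with a median of 30.7% over 28 pairs.

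The libraries came from 293FT cells, a human embryonic kidney line with SV40 large T antigen. Of 14 libraries, 3 were of cells given hA3A-BE3, a Cas9 nickase joined to human APOBEC3A, and 2 of cells given the prime editor PE3, a Cas9 nickase joined to a reverse transcriptase. Controls were 3 libraries each of cells given Cas9, cells given EGFP and non-transfected cells. Sample titles of every group, controls included, carry the name hRNF2. According to the labels, the cells were sorted at 40 h for the brightest 15%. No label says that replicates were separate cultures, so their spread may be technical. The lists hold called sites and no expression levels, so the cell type label was not checked against marker genes. Mapped bases per library, read from a constant ratio of the depth columns, ran from 3.26 to 10.6 Gb, and the libraries held 2499, 5113 and 6446 C-to-U sites in hA3A-BE3 replicates 1, 2 and 3, 43 and 44 in PE3 and 42 to 53 in controls.

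The 5 edited cytosines are shown with 14 bases of the GENCODE transcript on each side, 5′ to 3′ and with T for U, because their surroundings are compared below. The edited base is in capitals.
CCT5 I335I: gagctgattgccatCgcaacaggagggcg
CCT5 I374I: aaaatgctggtcatCgagcagtgtaagaa
TCP1 I211I: gagagtatgctcatCagtggctatgcact
CCT4 Q25X: ggaaaggcgcctatCaggaccgcgacaag
CCT6A R370C: aatgtaacaaccctCgttctgtcacatta
Protein changes are written with the encoded residue first, its number in the protein, then the residue after the change, with X for a stop. All 5 cytosines followed a T, all lay in coding sequence, and no C-to-U site of the 8 genes lay in a UTR or an intron. Over the 3660 genes with a coding C-to-U site, 6841 coding UpC positions were called, beside 10353 C-to-U sites in hA3A-BE3 cells. Sites with both traits were thus common outside the 8 genes. These counts do not give the share of each trait alone over all C-to-U sites. The 3 isoleucine sites changed ATC to ATT, which leaves isoleucine in place.

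C-to-U sites in these genes were found in hA3A-BE3 libraries and were not listed in any other library. There were 1, 5 and 4 of them in hA3A-BE3 replicates 1, 2 and 3, a mean of 3.33 ± 2.08 (SD, n = 3), against 0 in both PE3 libraries and 0 in each of the 9 control libraries. Replicate 1, which also had the fewest C-to-U sites over all genes, listed CCT5 I335I alone. The sites fell in 4 of the 8 genes (50%), TCP1, CCT4, CCT5 and CCT6A. Among 19907 protein-coding genes 23.2% had a C-to-U site in at least 1 hA3A-BE3 library, a share that includes genes the cells may not express. Among the 5431 protein-coding genes with a call of any kind in any library the share was 84.9%, against 4 of the 6 members with a call. Since these calls are those known when the genes were chosen, the shares are printed side by side and nothing is read from them.

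**Figure D1:**
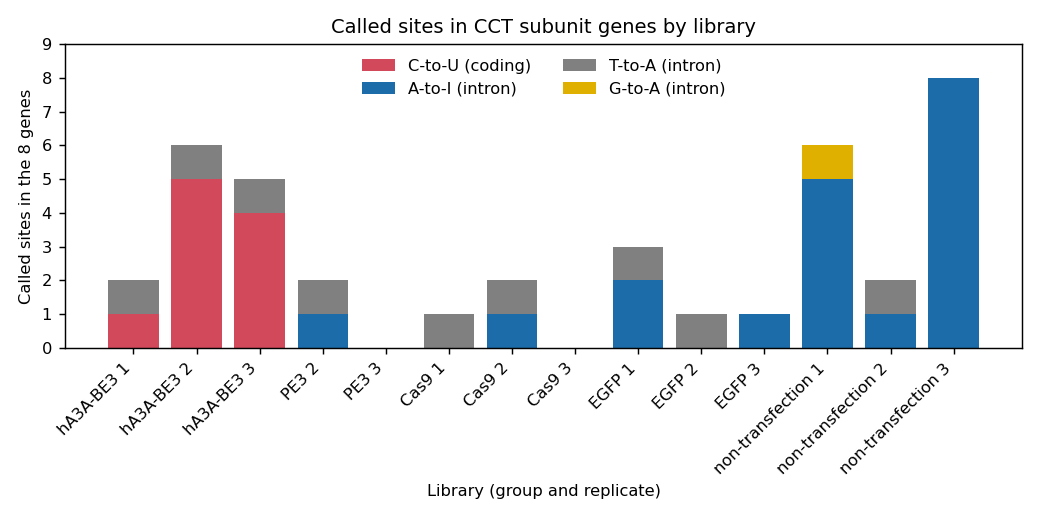
Called sites in the 8 CCT subunit genes (vertical axis, number of sites) for each of the 14 libraries, with bars stacked by kind of change. C-to-U sites number 1, 5 and 4 in the hA3A-BE3 libraries and 0 in the PE3, Cas9, EGFP and non-transfected libraries, while A-to-I sites are most numerous in non-transfected replicates 1 and 3, with 5 and 8.

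CCT5, the epsilon subunit, carried the most highly edited site. The gene spans chromosome 5, positions 10249921 to 10266412, on the plus strand and encodes 541 residues. At I335I (position 10261571, exon 8) the edited reads were 303 of 770 in hA3A-BE3 replicate 1, or 39.4% (95% Wilson interval 36.0 to 42.8). In replicate 2 they were 279 of 603, or 46.3% (42.3 to 50.3), and in replicate 3 they were 405 of 748, or 54.1% (50.6 to 57.7). Intervals cover counting error only, and reads are not independent molecules. The mean was 46.6% ± 7.40 (SD, n = 3), with replicate 1 lowest and replicate 3 highest, and the intervals of replicates 1 and 3 did not overlap. The site was listed in no PE3 or control library, where a site may be missing because it was unedited, uncovered or under the limits of the lists.

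The spread of the replicates at recurrent sites was also set against the counting of reads. A recurrent site is a C-to-U site that each of the 3 hA3A-BE3 replicates listed and that PE3 and control libraries did not. Fisher's exact test on edited and other reads (Freeman-Halton extension, two-sided, Benjamini-Hochberg adjustment over all sites) called 46 of the 1057 sites (4.35%) different between the libraries, CCT5 I335I among them. The test takes reads as independent, which they are not, and uses the reads that gave the levels above, so it describes these libraries and is no finding about the site. With a limit of at least 50 covering reads, 56 of 530 sites were called. The count fell to 0 without replicate 1, and was 27 without replicate 2 and 29 without replicate 3. An unadjusted exact p under 0.05 was held by 182 of the 1057 sites, and by 59 of 2103 without replicate 1. It was held by 164 of 1400 without replicate 2 and by 129 of 1221 without replicate 3. Without replicate 1 or 3, I335I was not among the sites called. Replicate 1 was the lowest of the 3 at 687 recurrent sites, and replicate 3 the highest at 458.

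I335I was the single recurrent site of the complex, which put CCT5 among the 873 of 19907 protein-coding genes (4.39%) with one. Without replicate 1, sites of 3 of the genes met the definition, 4 sites in all, and the median of their mean levels was 7.66%, against 46.6% with all 3 replicates. The mean level of I335I ranked 30 among the 1057 recurrent sites, whose median was 13.9%. It ranked 18 among the 295 that leave an isoleucine codon coding for isoleucine, whose median was 15.5%. It was also one of the most deeply covered, with a mean of 707 covering reads against a median of 62.7 over recurrent sites. Of 7 recurrent sites with more covering reads 1 had a higher mean level. These ranks describe a site that was chosen with its level known.

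**Figure D2:**
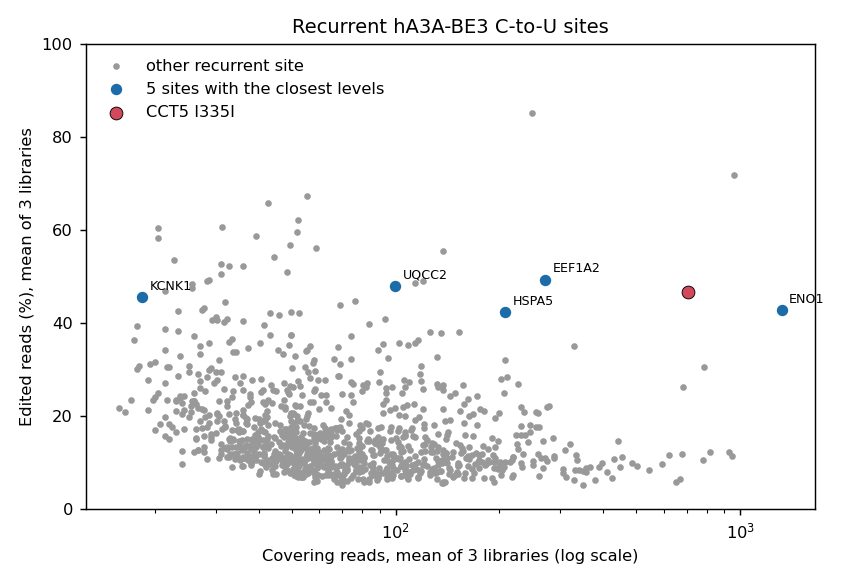
Mean edited reads in percent of covering reads (vertical axis) against mean covering reads on a log scale (horizontal axis) for the 1057 recurrent hA3A-BE3 C-to-U sites, each a mean of 3 libraries. CCT5 I335I, in red, lies at 46.6% and 707 reads, far to the right of the median site at 62.7 reads, and the 5 sites with the closest levels are marked in blue.

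The sites elsewhere with levels closest to I335I were found by the Euclidean distance of the edited percentage over the 3 hA3A-BE3 libraries, with at most 1 site per gene. They were KCNK1 I181I, in a potassium channel, EEF1A2 I345I, in a translation elongation factor, HSPA5 I99I, in the chaperone BiP of the endoplasmic reticulum, a 3′ UTR site of UQCC2, a mitochondrial assembly factor, and ENO1 I284I, in the glycolytic enzyme enolase. Distances ran from 4.42 percentage points for KCNK1 to 8.37 for ENO1. HSPA5 I99I had 34.1%, 44.0% and 48.8% in replicates 1, 2 and 3. EEF1A2 I345I had 44.0%, 51.4% and 52.6%. Replicate 1 was the lowest at each of the 5 sites, an order that the choice by closeness to I335I favours. KCNK1 rested on 18, 19 and 18 covering reads, so its levels are far less precise than those of ENO1, with 1381, 1076 and 1502.

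A further CCT5 site, I374I (chromosome 5, position 10261688, exon 8), lay in the same exon as I335I and was far less edited. It had 29 of 401 reads edited in hA3A-BE3 replicate 2, or 7.23% (95% Wilson interval 5.08 to 10.2), and 43 of 560 in replicate 3, or 7.68% (5.75 to 10.2). The replicates overlapped closely, and replicate 1 did not list the site. Both CCT5 sites share the stretch CATCG, in which the edited C is the base before the G.

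TCP1, the alpha subunit, spans positions 159778498 to 159789749 of chromosome 6 on the minus strand and carried I211I (position 159784703, exon 6). It had 30 of 386 reads edited in hA3A-BE3 replicate 2, or 7.77% (5.50 to 10.9), and 31 of 523 in replicate 3, or 5.93% (4.21 to 8.29). Here replicate 2 was the higher, with overlapping intervals.

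CCT4, the delta subunit, carried the only stop codon of the set. The gene spans positions 61868089 to 61888804 of chromosome 2 on the minus strand. Q25X (position 61888435, exon 1) changes CAG to TAG at 4.64% of the protein's length. The edited reads were 20 of 318 in hA3A-BE3 replicate 2, or 6.29% (4.11 to 9.51), and 45 of 477 in replicate 3, or 9.43% (7.13 to 12.4), and the intervals overlapped.

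CCT6A, a zeta subunit, carried the only amino acid substitution, R370C, where CGT becomes TGT. The gene spans positions 56051630 to 56063989 of chromosome 7 on the plus strand, and the site is position 56060311 in exon 10. It was listed in hA3A-BE3 replicate 2 alone, with 17 of 252 reads edited, or 6.75% (4.25 to 10.5). The 4 sites other than I335I thus lay between 5.93% and 9.43% in every library that listed them, close to the lowest level in any list, 5.02%. A library that does not list them may have held them just under that limit.

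**Figure D3:**
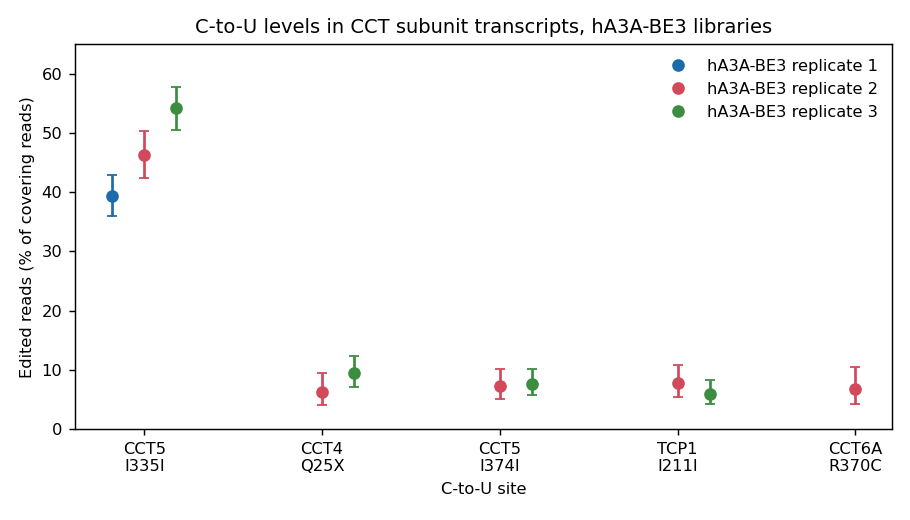
Edited reads in percent of covering reads (vertical axis) at the 5 C-to-U sites of CCT subunits (horizontal axis) in the hA3A-BE3 libraries that listed them, with 95% Wilson intervals as bars and 1 colour per replicate. CCT5 I335I lies between 39.4% and 54.1%, and the other sites between 5.93% and 9.43%.

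Coverage of the C-to-U calls was high. They rested on 252 to 770 covering reads, and 97.4% of the 14058 C-to-U calls of hA3A-BE3 libraries had fewer than 252. The median C-to-U call had 48, 45 and 53 covering reads in replicates 1, 2 and 3, and a median level of 9.38%, 9.80% and 8.78%. By pattern of calls, 1 member site was listed in all 3 replicates, 3 in replicates 2 and 3, and 1 in replicate 2. Over all 10353 C-to-U sites of hA3A-BE3 cells, 10.4% were listed in all 3 replicates, 10.1% in replicates 2 and 3, and 27.3% in replicate 2 alone.

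Most UpC positions of the 8 coding sequences were not called. They numbered 647, from 74 in CCT2 to 90 in CCT3, and 5 of them (0.773%) were called. By effect, a C-to-U change would be synonymous at 271, where 3 were called, would change an amino acid at 326, where 1 was called, and would make a stop at 50, where 1 was called. At the final position of an ATC isoleucine codon 3 of 103 were called. In the 4 members with a site 5 of 320 UpC positions (1.56%) were called. Over the 3660 genes with a coding C-to-U site in hA3A-BE3 cells the count was 6841 of 488828 (1.40%). At the final position of ATC codons the counts were 3 of 43 (6.98%) in those 4 members and 2106 of 51548 (4.09%) over the 3660 genes. The member counts are small, and nothing is read from them. CCT3, the gamma subunit (chromosome 1, positions 156308968 to 156367873, minus strand), had the most ATC codons, 24. CCT7, the eta subunit (chromosome 2, positions 73233420 to 73253021, plus strand), had 18, and neither gene had a called site. Whether those positions were covered is not recorded in lists of called sites.

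Letters around the sites were searched on the transcript strand of the coding sequences. CATC, with the edited C last, stood at 75 positions in the 8 genes, of which 3 were called, the isoleucine sites of CCT5 and TCP1. Its form CATCG stood at 7 positions, 3 of them in CCT5, and 2 (28.6%) were called. The form CATCA stood at 36 positions and 1 (2.78%) was called, in TCP1. In the 4 members with a site 3 of 32 CATC, 2 of 4 CATCG and 1 of 11 CATCA positions were called. Over the 3660 genes with a coding C-to-U site 5.04% of 44424 CATC positions were called. There the shares were 15.2% of 5685 CATCG positions and 6.77% of 15668 CATCA positions. The counts in the members are too small to set against these shares.

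**Figure D4:**
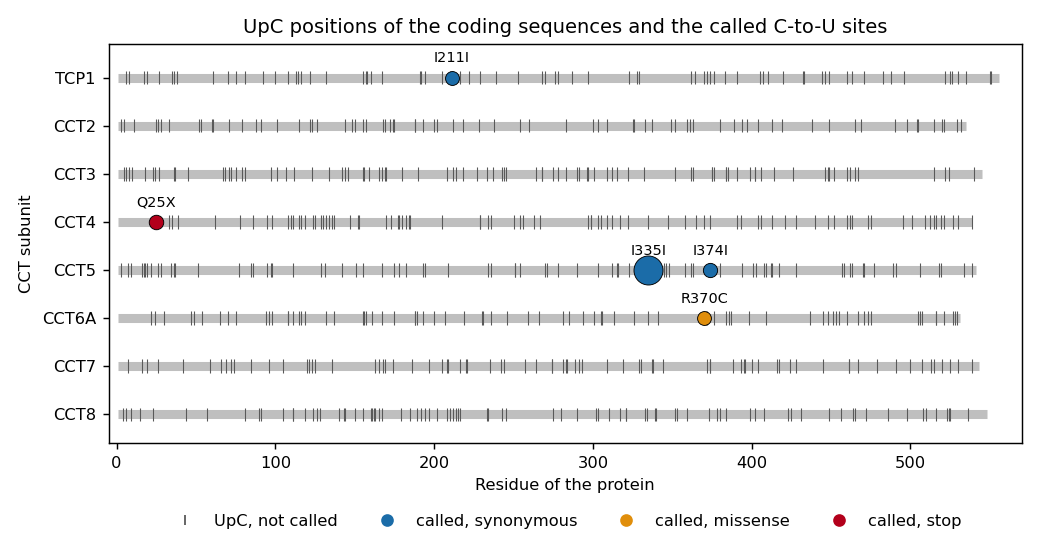
UpC positions (ticks) along the residues of the 8 CCT subunit proteins, with the 5 called C-to-U sites as circles coloured by effect and sized by mean level. The 647 UpC positions are spread over all 8 proteins, while called sites are found in TCP1, CCT4, CCT5 and CCT6A.

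The called positions were not shared by the paralogues. In an alignment of the 8 proteins none of the 7 other subunits had isoleucine at the column of CCT5 I335, and none had a UpC there. The aligned stretches are shown for comparison with that of CCT5 above, with the base at the same codon position in capitals.
TCP1 K321: aaacgcattgccaaAgcttctggagcaac
CCT2 L325: gaacgcctagctctTgtcacaggtggtga
CCT3 R325: aatcgcattgctagAgcctgtggggcccg
CCT4 K338: gaattcatttgtaaGacaattggaaccaa
CCT6A L326: gagaggctgactctTgcttgtggtggggt
CCT7 M324: aagaggacaatgatGgcctgtggaggctc
CCT8 K326: cgaagactttgtaaAactgttggtgctac

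Other called positions had partial counterparts. At the column of CCT5 I374, isoleucine stood in 4 other subunits, as ATC in TCP1 and CCT3 and as ATT in CCT4 and CCT6A. At that of TCP1 I211 it stood in 2, as ATT in CCT5 and as ATC in CCT6A. The 3 paralogous ATC codons are shown because they carry an uncalled UpC at the column of a called one.
TCP1 I364: gagctgatcttaatCaaaaatactaaggc
CCT3 I363: tactttactttcatCactgactgcaaaga
CCT6A I207: gatacaagcttaatCagagggcttgtttt
None of the 3 was called in any library. At the column of CCT6A R370 arginine stood in 1 other subunit, CCT5, as AGA, which has no C at that place. CCT4 Q25 lies in an N-terminal stretch that aligned with 1 other subunit, CCT5.

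APOBEC3A is known to favour cytosines in the loops of RNA hairpins, so local structures were predicted with RNAfold from 25 bases on each side. The edited C lay in a hairpin loop at 3 of the 5 member sites, CCT5 I374I, CCT4 Q25X and CCT6A R370C. At CCT5 I374I it was the last base of a 3-base loop. At CCT5 I335I, the most edited site, it was unpaired but outside a hairpin loop, and at TCP1 I211I it was paired. Over 1043 exonic recurrent sites of the series 73.9% lay in a predicted hairpin loop, against 27.4% of the 642 other UpC positions of the 8 coding sequences. The sets are not matched, since the recurrent sites come from many genes and include UTR sites. With 15 bases on each side TCP1 I211I moved into a 7-base loop and CCT5 I335I became paired, while the shares were 87.2% and 43.0%. No test was made of these shares, and a predicted fold is a description.

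Near-identical copies could take or lend reads. GENCODE names 13 pseudogenes after the members, and 0 calls lay in them. The 29 bases around CCT5 I335I, CCT4 Q25X and CCT6A R370C occurred in no transcript of another gene. Those around CCT5 I374I occurred in CCT5P1 and CCT5P2, and those around TCP1 I211I in TCP1P1. With 51 bases a copy was left for CCT5 I374I alone, in CCT5P1. No transcript of another gene held the same 29 or 51 bases with the changed base. The search was for exact matches, so it could not find copies with further differences. Another annotated gene lay at none of the 20 sites, and 0 calls lay on the opposite strand within the 8 genes.

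Changes of other kinds were all intronic, 15 sites in all, and rested on 8 to 48 covering reads. CCT6A held 10 A-to-I sites with 16 calls. Of the 16 calls 0 were in hA3A-BE3 and PE3 libraries, 1 in Cas9, 3 in EGFP and 12 in non-transfected libraries. Over the whole series A-to-I calls numbered 6450 in hA3A-BE3 libraries and 3003 in the 2 PE3 libraries. They numbered 5641 in Cas9, 7109 in EGFP and 6293 in non-transfected libraries. A-to-I editing is the work of ADAR deaminases on double-stranded RNA. Of the 10 sites 9 lay within 766 bases, from position 56052911 to position 56053677 of chromosome 7. The most edited, position 56052927, had 10 of 15 reads in EGFP replicate 1, or 66.7% (95% Wilson interval 41.7 to 84.8), and 7 of 19 in non-transfected replicate 3, or 36.8% (19.1 to 59.0). Replicates 1, 2 and 3 listed 0, 1 and 0 of the CCT6A sites in Cas9 cells, 2, 0 and 1 in EGFP cells, and 4, 1 and 7 in non-transfected cells, so these groups overlapped. The 5 sites seen in a single library had 2 to 4 edited reads.

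Depth at these intronic positions was near the lower limit of the lists. By a deposited depth that exceeds the covering reads at these calls, the lists hold no site under 3.01 reads per Gb of mapped bases. The A-to-I calls of CCT6A had 3.06 to 5.89 reads per Gb by that depth. A library without a call may thus have been below the limit, and the levels of the groups were not compared. CCT8, the theta subunit, had an A-to-I site at position 29064215 of chromosome 21, with 5 of 19 reads in non-transfected replicate 1 and 3 of 11 in replicate 3. A further one, at position 29058005, had 3 of 8 reads in PE3 replicate 2. Together CCT6A and CCT8 were 2 of 8 members with an A-to-I site in a control library, against 1097 (5.51%) of 19907 protein-coding genes. That share includes genes the cells may not express. A call of any kind was held by 5431 protein-coding genes and by 6 members, and nothing is read from these counts.

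The T-to-A sites were near-complete changes. In CCT2, the beta subunit, position 69593505 of chromosome 12 lay 5 bases from an exon end and was changed in 93.3% to 96.4% of reads in the 3 hA3A-BE3 libraries. It was changed in 95.8% of 48 reads in PE3 replicate 2, in 84.6% and 91.7% in Cas9 replicates 1 and 2, and in 95% in EGFP replicate 2. In CCT5, position 10259889 was changed in 16 of 16 reads in EGFP replicate 1 and 15 of 15 in non-transfected replicate 2. Whether these are differences of the cell line's genome was not tested. The G-to-A site, at position 56059138 in CCT6A, had 2 of 14 reads in non-transfected replicate 1.

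Genes that work with the chaperonin were counted in the same way, and their counts stand beside the 23.2% of protein-coding genes with a C-to-U site and the 4.39% with a recurrent one. Prefoldin, which hands clients to CCT, and the phosducin-like cochaperones had no C-to-U site in hA3A-BE3 cells in any of 10 genes. Of 7 relatives, which include the mitochondrial chaperonin HSPD1 and its cochaperonin HSPE1, 1 (14.3%) had C-to-U sites, MKKS, a CCT-like protein named after its values were seen, with 2 sites in replicate 3. Of 7 tubulin folding cofactors 3 (42.9%) had sites and 1 (14.3%) a recurrent one. They were TBCB, TBCD and TBCE, the last pair likewise named after their values were seen. TBCB, which binds alpha-tubulin, carried the recurrent site I34I at 33.3%, 41.0% and 48.1% in replicates 1, 2 and 3, a mean of 40.8% ± 7.41 (SD, n = 3). Replicate 1 was the lowest there, as it was at 687 of the 1057 recurrent sites.

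Of 25 folding clients 14 (56%) had a C-to-U site and 5 (20%) a recurrent one, against 23.2% and 4.39% of protein-coding genes. Among protein-coding genes with a call of any kind the share with a C-to-U site was 84.9%. That share is not on the same basis as the 56%, since the 25 clients include 9 tubulin genes without a call of any kind. Nothing is read from either comparison. The clients held 9, 18 and 25 C-to-U sites in hA3A-BE3 replicates 1, 2 and 3. All other libraries together held 1, in Cas9 replicate 3. The beta-actin gene ACTB carried I34I at 13.6%, 26.7% and 23.3% and I248I at 7.60%, 7.02% and 10.8% in replicates 1, 2 and 3. GNB1, a G protein beta subunit, carried a 3′ UTR site at 15.7% ± 4.06, the phosphatase subunit gene PPP2R2A R395C at 12.5% ± 1.65, and STRAP, a WD-repeat protein gene, P233S at 9.15% ± 4.91 (SD, n = 3 each). Mean levels at the recurrent client sites lay between 8.32% and 21.2%, with a median of 10.8%, and CCT5 I335I lay above each of them. The level of I335I was known when the genes were chosen, so nothing is read from this order. The lists were written with earlier results of these data known, and the shares were not tested.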

How the data were processed

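The authors deposited a list of called RNA sites per library, without a header. Per the labels' protocols, total RNA was depleted of ribosomal and globin RNA and read as stranded pairs of 150 bases. The submitters' processing notes name BWA 0.7.17, hg38 and GRCh38, with no role for each. Neither the caller nor its limits were given in the sources used here. Deposited counts are reads per site (covering, per base, edited), a deposited fraction is the edited share of covering reads, and a deposited signal column is a depth divided by a constant per library, read as Gb from the values. The strand of a site followed from the base columns read as A, C, G, N and T on the plus strand; 17541 of 17541 exonic sites then matched the GENCODE 29 transcript base.

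Sites were placed in the gene spans and, for protein numbering, in the transcript with the longest coding sequence. Python 3.11.15, scipy 1.17.1, MAFFT 7.526 and ViennaRNA 2.7.2 were used. The exact test ran over all recurrent sites at an adjusted p of 0.05 and was tested on simulated data. Named genes were the 8 members with every site called in at least 2 hA3A-BE3 libraries, up to 4 genes per further list by number of recurrent sites, and the 5 nearest sites; CCT6A R370C, listed in 1 library, and the intronic sites were added after their values were seen. Members and lists were chosen with earlier results of these data known. PE3 replicate 1 was not analysed here. Alternatives were stricter limits on reads and levels, the annotated strand, pooled reads, scaling per Gb, a shorter folding window and leaving out each hA3A-BE3 library.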

Additional observations from a re-analysis of the deposited data

How the results depend on the processing

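Limits of at least 20 or 50 covering reads or 5 edited reads, the annotated strand and scaling per Gb moved no value of the 8 genes beyond the spread of the replicates. With an edited fraction of at least 10%, CCT5 I335I alone was left, at 1 site per hA3A-BE3 library, 100% of coding sites were synonymous, and 25 recurrent sites of the series differed between libraries. With each hA3A-BE3 library left out in turn, the mean number of C-to-U sites ran from 2.5 to 4.5, the recurrent sites of the 8 genes from 1 to 4, the genes with one from 1 to 3, and the median of their mean levels from 7.66% to 46.7%. The share after a U and the coding share stayed at 100%, and the synonymous share ran from 60% to 75%. Without replicate 1 the recurrent sites were 4, since CCT5 I374I, TCP1 I211I and CCT4 Q25X then met the definition, and the median was the lowest. Sites that differed between libraries numbered 0 to 29 by Fisher's exact test, with 0 without replicate 1. An unadjusted p of that test under 0.05 was held by 59 of 2103 sites without replicate 1, against 182 of 1057 with all 3 replicates. The mean level of I335I ran from 42.8% to 50.2%, and was 46.5% from pooled reads. With 15 bases folded on each side, 87.2% of recurrent exonic sites lay in a hairpin loop. No paired analysis was possible because PE3 and control lists hold no value at these C-to-U sites to pair with those of hA3A-BE3, and the exact test stays within hA3A-BE3. The lists keep no uncalled positions, so coverage of CCT3 and CCT7 is unknown.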

Other observations

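The client list holds 9 tubulin genes, and 0 calls of any kind lay in them over the 14 libraries. These genes were picked out after their values were seen. In all, 5431 of 19907 protein-coding genes had a call of any kind and 23.2% a C-to-U site in hA3A-BE3 cells. Both shares include genes the cells may not express. Of the 25 clients 14 had a C-to-U site, and none of those was a tubulin gene. Whether the tubulin genes differ from other genes was not tested. Tubulin genes form a family of similar copies, and how reads that match several copies were treated is not stated in the labels. Any link of this to the absence of calls was not tested.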
